A study of Mus musculus with 2 samples.

Results

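The genes described here are the 10 MHC class II presentation genes *H2-Aa*, *H2-Ab1*, *H2-Eb1*, *H2-DMa*, *H2-DMb1*, *H2-DMb2*, *H2-Oa*, *H2-Ob*, *Cd74* and *Ciita*, which were matched by symbol to 10 of the 32287 features in the count matrices. They were followed through the cells of mouse hind limb muscle, with dendritic subsets set against macrophage states. The data are 2 scRNA-Seq libraries from muscle collected 7 days after peroneal nerve injury (7 dpi), 1 from animals injected with a neutralizing antibody to SPP1 (SPP1-nAb) and 1 from animals injected with control IgG, given in the labels as goat anti-mouse IgG. Both groups received 2 μg of antibody in 10 μL at injury and again every 2 days. The strain label was C57BL/6J for both, the study's methods describe pooled male *S100GFP*-tg mice of 10 to 16 weeks, in which the *S100B* promoter drives GFP, and the number of mice in each pool was not given in the sources used here. The titles name the GFP-positive fraction, while the sort in the labels kept live cells with and without GFP, and the matrices held immune and stromal cells in both libraries.

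MHC class II molecules are pairs of an alpha and a beta chain that carry peptides from the endosome to the surface of antigen-presenting cells, where CD4+ T cells read them. The invariant chain, encoded by *Cd74*, holds the newly made pair until H2-DM exchanges its remnant for peptide, and H2-O restrains H2-DM. The transactivator CIITA is recruited to the X and Y boxes upstream of these genes, and dendritic cells are the tissue cells best known for high constitutive expression, whereas macrophages raise the same genes on exposure to interferon gamma.

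The upstream stretches of members for which the RefSeq promoter table held a window are shown because the X and Y boxes sit there. Windows covered the 250 bases before each start and 50 after it, in GRCm38.p6, and 7 of 10 members matched. The letters searched, on both strands and chosen after the windows had been seen, were TGATTGG for the Y box and, for the X box, AAC and, after any 2 bases, ATGATG. The palindrome TGACGTCA, the cyclic AMP response element, was a further string. Capitals mark these strings and the rest is in lower case, 5′ to 3′ on the gene's strand.
*H2-Aa*, chr17:34287857-34287933, minus strand: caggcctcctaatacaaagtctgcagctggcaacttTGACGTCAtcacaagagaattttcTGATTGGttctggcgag
*H2-Eb1*, chr17:34305746-34305822, plus strand: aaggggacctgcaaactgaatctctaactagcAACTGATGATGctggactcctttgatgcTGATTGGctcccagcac
*H2-DMb2*, chr17:34145097-34145173, plus strand: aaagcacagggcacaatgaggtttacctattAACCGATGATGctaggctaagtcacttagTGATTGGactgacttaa
*H2-Eb2*, a neighboring class II beta chain locus outside the 10 members, chr17:34325513-34325589, plus strand: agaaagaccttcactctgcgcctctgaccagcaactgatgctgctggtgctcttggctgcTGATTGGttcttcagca

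The Y box string was present in the windows of 6 of the 7 matched members (*H2-Aa*, *H2-DMb1*, *H2-DMb2*, *H2-Eb1*, *H2-Oa* and *H2-Ob*) and in that of *H2-Eb2*, against 7.23% of all 32851 windows, and neither window of *H2-DMa* held it. The X box string was found in 39 windows, or 0.119% of all. It was followed on the same strand by the Y box string 15 to 25 bases on in only 4 of the 32851 windows, those of *H2-DMb1*, *H2-DMb2*, *H2-Eb1* and *H2-Ob*, with 18, 18, 17 and 15 bases between the strings. The *H2-Aa* window lacked the X box string and held the TGACGTCA string, which occurred in 1.55% of all windows, 16 bases before the Y box. These matches are descriptions of letters, not of bound sites. In GENCODE's annotation the stretches of *H2-Aa*, *H2-DMb2* and *H2-Eb2* overlapped no exon, and that of *H2-Eb1* overlapped an exon of the antisense noncoding gene *Gm20513* only. Along chromosome 17 the members lay in the order *H2-Oa*, *H2-DMa*, *H2-DMb2*, *H2-DMb1*, *H2-Ob*, *H2-Ab1*, *H2-Aa*, *H2-Eb1*, with *Ciita* on chromosome 16 and *Cd74* on chromosome 18.

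Cells were assigned to classes from marker genes, none of which was a member, with at least 3 detected markers of a class required. The libraries held 97607674 UMIs (IgG) and 127719916 UMIs (SPP1-nAb) in 23779 and 25069 barcodes, of which 23385 and 24758 passed the study's stated limits (over 200 detected genes and a mitochondrial share under 10%), with medians of 3822 and 4756 UMIs. The 2 matrices shared 163 barcodes. The dendritic classes comprised 298 (IgG) and 273 (SPP1-nAb) cDC1-like cells, 420 and 430 cDC2-like cells, 77 and 87 mregDC-like cells (mature, migratory dendritic cells) and 24 and 37 pDC-like cells, called cDC1, cDC2, mregDC and pDC from here on. Phagocytes were divided into states named by their leading genes, from *Tnip3* *Clec4b1* macrophages (1822 and 2200 cells) to *Lyve1* *Cd209f* macrophages (1231 and 518 cells).

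The labels were compared with the levels of markers. *Flt3*, the receptor that maintains dendritic cells, was at 112 to 201 UMIs per 1000000 UMIs of the class (CPM) in every dendritic class and at no more than 7.52 CPM in any phagocyte class. It was also 1 of the markers in the cDC2 gate, so its level is no check of that class. *C1qa*, a complement gene of macrophages and 1 of the 9 lineage markers in the phagocyte gate, was at 7.17 to 17.1 CPM in cDC1, cDC2 and mregDC and at 802 CPM or more in every phagocyte class. Cells entered each class by its own marker list, so a marker that is highest in its class is largely set by the gate. All 10 mregDC markers and 9 of 10 cDC1 markers were highest in their own class, but only 2 of 9 cDC2 markers were (*Cd209a* and *Dpp4*). The minimum of 3 markers was all that 50.2% (IgG) and 42.1% (SPP1-nAb) of cDC2 cells held. In the *Tnip3* *Clec4b1* state 2 of 5 markers were highest in their own class, while *Tnip3* itself and *Mgl2* peaked in cDC2, and 62.5% and 62.1% of its cells held the minimum. That state carried *C1qa* at 1542 and 1409 CPM and the 9 cDC2 markers at a summed 141 and 113 CPM, against 2302 and 2169 CPM in cDC2, a gap that the gate on these same markers helped to set.

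By the mean of both libraries, cDC1 and cDC2 took the first 2 ranks among the classes for the classical chains and for the invariant chain. *H2-Aa*, the alpha chain of the A molecule, was at 7712 CPM (IgG) and 7721 CPM (SPP1-nAb) in cDC1 and at 7744 and 8067 CPM in cDC2. In mregDC it reached 6384 and 8132 CPM, and in the *Tnip3* *Clec4b1* macrophages 5689 and 5761 CPM. The other macrophage states of the fit lay lower, from 1098 CPM in SPP1-nAb *Lyve1* *Cd209f* cells to 3377 CPM in SPP1-nAb interferon-response phagocytes, and did not overlap the *Tnip3* *Clec4b1* state. *H2-Ab1*, its beta partner, had 6157 and 6071 CPM in cDC1, 3046 and 3983 CPM in mregDC, 3915 and 3788 CPM in *Tnip3* *Clec4b1* macrophages and 654 to 2056 CPM in the other states. *H2-Eb1*, the beta chain of the E molecule, was at 6283 and 6807 CPM in cDC1, 6404 and 6956 CPM in cDC2, 4697 and 4664 CPM in *Tnip3* *Clec4b1* macrophages and 753 to 2487 CPM elsewhere among the states. *Cd74* had 20044 and 19581 CPM in cDC2, 16751 and 16699 CPM in cDC1, 13336 and 16291 CPM in mregDC, 13933 and 12854 CPM in *Tnip3* *Clec4b1* macrophages and 2769 to 7638 CPM in the other states. For *H2-Ab1* mregDC overlapped the *Tnip3* *Clec4b1* state, and for *Cd74* the IgG mregDC lay below the IgG cells of that state.

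Non-immune classes other than endothelial cells served as the background for these levels, and whether they made these RNAs themselves was not tested. Mesenchymal, mural, satellite and Schwann cells together held *H2-Aa* at 83.5 CPM [95% exact Poisson interval 79.7 to 87.5] and 89.0 CPM [84.2 to 93.9], and *Cd74* at 185 and 213 CPM. These intervals, like all intervals below, cover counting error only. *H2-Ea*, the alpha partner of *H2-Eb1*, was not analysed here, so the *H2-Eb1* levels do not show whether an E molecule was formed.

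**Figure D1:**
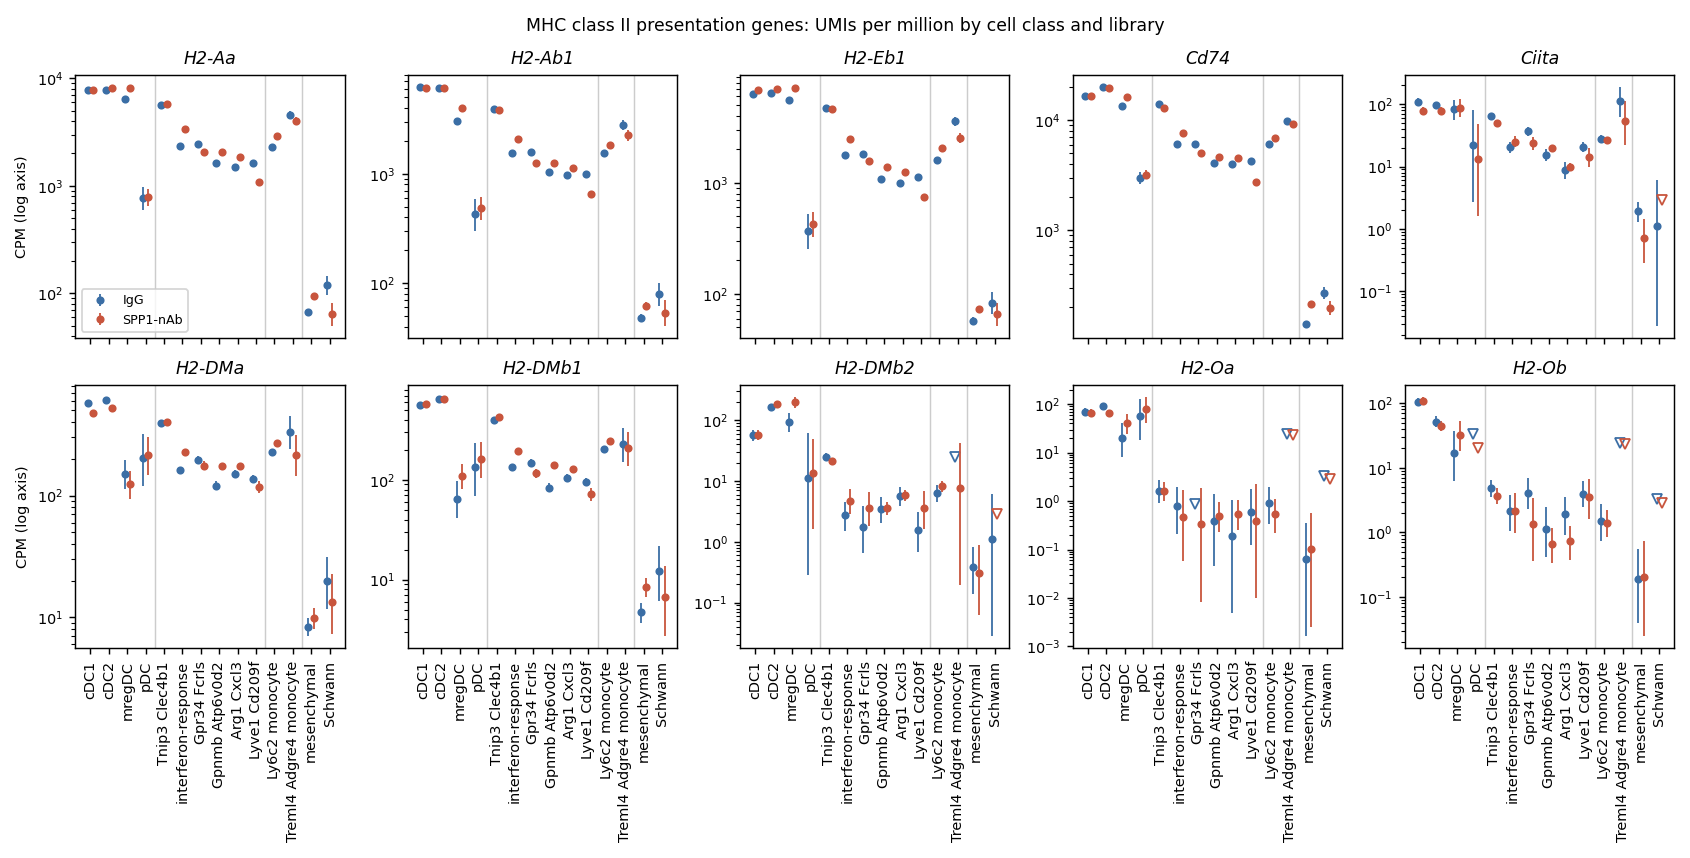
CPM (log axis) of each of the 10 members by cell class, dendritic classes on the left, then macrophage states, monocytes and non-immune cells. Blue points are the IgG library, red points the SPP1-nAb library, bars the 95% Poisson interval, and open triangles the level of 3 counts in classes with 0 UMIs; the H2-Oa and H2-Ob panels drop from 17.0 CPM or more in cDC1, cDC2 and mregDC to under 5 CPM in every macrophage state.

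Summed over the 4 core genes *H2-Aa*, *H2-Ab1*, *H2-Eb1* and *Cd74*, the classes fell into a clear order. cDC2 led with 40258 and 40664 CPM, followed by cDC1 with 36903 and 37297 CPM, mregDC with 28366 and 35526 CPM and the *Tnip3* *Clec4b1* macrophages with 28235 and 27067 CPM. Neighbors among these 4 did not overlap between libraries, although the IgG values of mregDC and *Tnip3* *Clec4b1* macrophages were within counting error of each other. The *Treml4* *Adgre4* monocytes came next at 20814 and 18009 CPM, and their range overlapped that of phagocytes of no state. Interferon-response phagocytes (11772 and 15558 CPM), *Ly6c2* monocytes (11558 and 13692 CPM) and *Gpr34* *Fcrls* macrophages (11971 and 9896 CPM) overlapped one another in that order, and so did *Gpnmb* *Atp6v0d2* (7871 and 9345 CPM), *Arg1* *Cxcl3* (7497 and 8799 CPM) and *Lyve1* *Cd209f* macrophages (8038 and 5274 CPM). pDC stood below every phagocyte class with 4546 and 4886 CPM. Mesenchymal, mural, satellite and Schwann cells together held 399 and 434 CPM, and endothelial cells, which were not among them, held 838 and 1146 CPM. Of all *H2-Aa* UMIs in the kept barcodes 41.2% and 50.1% came from macrophage states and 13.8% and 11.2% from dendritic subsets. The rest lay in other classes and in barcodes without a single class. The smaller dendritic classes thus had higher CPM but held less of the total in these sorted cells, whose mix need not be that of the tissue.

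Within classes the cells differed widely. Core UMIs per 10000 UMIs of the cell had a 10th percentile, median and 90th percentile of 251, 374 and 489 in IgG cDC1 and 245, 371 and 502 in SPP1-nAb cDC1. The macrophage states spread further toward 0. In IgG *Lyve1* *Cd209f* macrophages the same percentiles were 0, 23.8 and 291, and in SPP1-nAb 0, 10.2 and 187, so that the 90th percentile of the state passed the 10th percentile of cDC1 in IgG but not in SPP1-nAb. mregDC ranged from 30.3 to 578 in IgG and from 78.8 to 580 in SPP1-nAb. The *Tnip3* *Clec4b1* state had medians of 304 and 283. Cells with at least 2000 UMIs were also thinned to 2000 UMIs, and the rest were left out. This kept 2822 of 3288 (IgG) and 1376 of 1553 (SPP1-nAb) mesenchymal cells. After thinning, *Cd74* was detected in 99.7% and 100% of cDC1 and 97.8% and 98.2% of *Tnip3* *Clec4b1* macrophages, against 13.9% and 22.2% of mesenchymal cells, a class not known to make it at rest. Without thinning, and over all cells of the class, the mesenchymal shares were 27.8% and 52.4%.

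**Figure D2:**
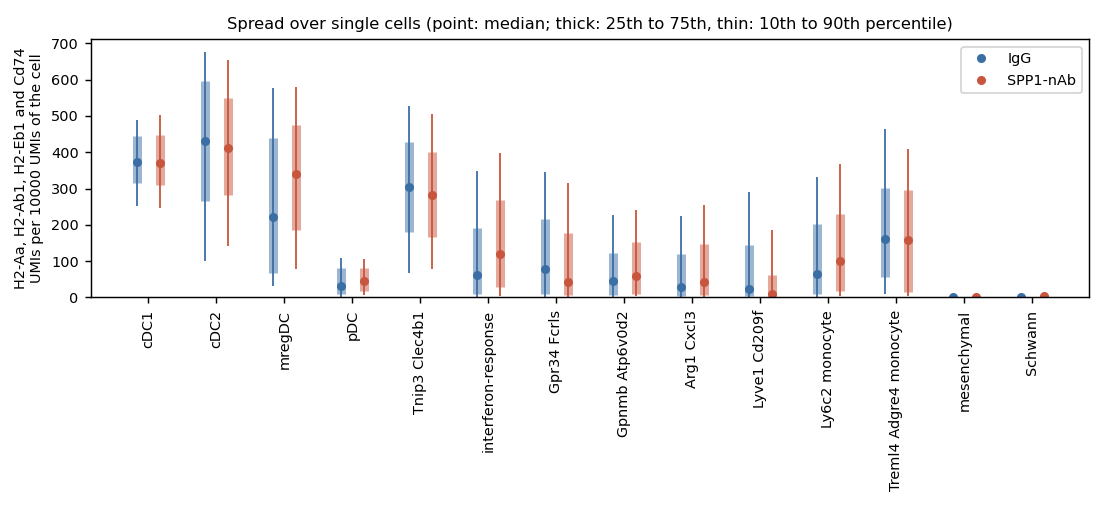
Summed UMIs of H2-Aa, H2-Ab1, H2-Eb1 and Cd74 per 10000 UMIs of the cell, for each class and library; points are medians, thick bars the 25th to 75th and thin bars the 10th to 90th percentile over cells. cDC1 cells have medians of 374 (IgG) and 371 (SPP1-nAb), while several macrophage states have medians under 100 and upper ends that pass 200.

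Whether the dendritic subsets exceeded the macrophage states was tested with edgeR's quasi-likelihood test on UMIs summed per class and library. The mean of cDC1, cDC2 and mregDC was set against the mean of 6 macrophage states, with library as a covariate and p adjusted by Benjamini-Hochberg over 15101 genes. The 2 libraries, which had different treatments, serve as the replicates. A shift shared by all classes is absorbed by the library covariate. These p-values therefore measure only how far differences between classes varied between these libraries, not the spread between animals. That variation was estimated over all 20 classes of the fit, non-immune ones included (40 sums, 19 residual degrees of freedom). It includes any treatment effect that differed between classes. All 10 members were higher in the dendritic subsets, where 13.4% of all genes tested were higher and 30.9% lower. This split of 2028 higher and 4669 lower genes depended on scaling, being 2579 and 3668 with DESeq2's size factors and 3047 and 3574 with DESeq2, and the median log2 difference of all genes moved from -0.41 to -0.26 and -0.02. The 10 members stayed higher under both.

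In this contrast, which weighs cDC1, cDC2 and mregDC equally, the members fell into 3 tiers of difference. The H2-O genes and *H2-DMb2* differed most. *H2-Oa*, the alpha chain of H2-O, had 69.9 and 66.9 CPM in cDC1 and 91.3 and 65.1 CPM in cDC2, and between 0 and 1.64 CPM in every macrophage state of the fit. Dendritic and macrophage classes did not overlap, and the log2 difference was 6.64 ± 0.29 (SE, adjusted p = 3.2e-22). *H2-Ob*, its beta chain, had 105 and 109 CPM in cDC1, 51.6 and 44.4 CPM in cDC2 and 0.659 to 4.80 CPM across the states, a log2 difference of 4.58 ± 0.27 (adjusted p = 7.6e-18). *H2-DMb2*, which encodes an H2-DM beta chain, had 56.3 and 57.2 CPM in cDC1, 168 and 187 CPM in cDC2 and 1.59 to 25.2 CPM in the states, a log2 difference of 4.59 ± 0.15 (adjusted p = 5.6e-27). Dendritic subsets thus held 72.0% (IgG) and 65.9% (SPP1-nAb) of all *H2-Oa* UMIs in the kept barcodes, against 5.51% and 9.32% in macrophage states.

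The classical chains, *Cd74* and *Ciita* formed the middle tier. *Ciita*, the transactivator of the family, had 107 and 77.6 CPM in cDC1, 95.6 and 76.8 CPM in cDC2 and 82.0 and 87.8 CPM in mregDC, against 8.72 to 63.5 CPM in the macrophage states of the fit. None of the 6 dendritic sums overlapped the states, and the log2 difference was 1.95 ± 0.14 (adjusted p = 1.5e-14). The log2 differences of *H2-Eb1* (1.95 ± 0.14), *H2-Ab1* (1.79 ± 0.16), *H2-Aa* (1.70 ± 0.14) and *Cd74* (1.57 ± 0.14) lay close to it, with adjusted p-values from 1.2e-10 to 8.7e-09.

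*H2-DMa* and *H2-DMb1*, which encode the alpha and a beta chain of the peptide exchanger H2-DM, differed least in this contrast. Both genes were low in mregDC, which counted as much as cDC1 or cDC2. In cDC1 and cDC2 both lay above every macrophage state of the fit, so the tier describes the mean of the 3 subsets. *H2-DMa* had 578 and 475 CPM in cDC1, 611 and 521 CPM in cDC2, 150 and 124 CPM in mregDC and 118 to 405 CPM in the states. The mregDC sums lay within the range of the states, and the log2 difference over the 3 subsets was 0.86 ± 0.10 (adjusted p = 1.7e-08). *H2-DMb1* had 567 and 579 CPM in cDC1, 643 and 644 CPM in cDC2, 65.1 and 109 CPM in mregDC and 71.9 to 427 CPM in the states, a log2 difference of 1.11 ± 0.16 (adjusted p = 4.1e-06). *H2-DMb1* and *H2-DMb2* share 209 stretches of 90 bases in GENCODE transcripts, 13.2% and 10.3% of each gene's, so that reads from shared stretches may have been split or dropped between them.

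**Figure D3:**
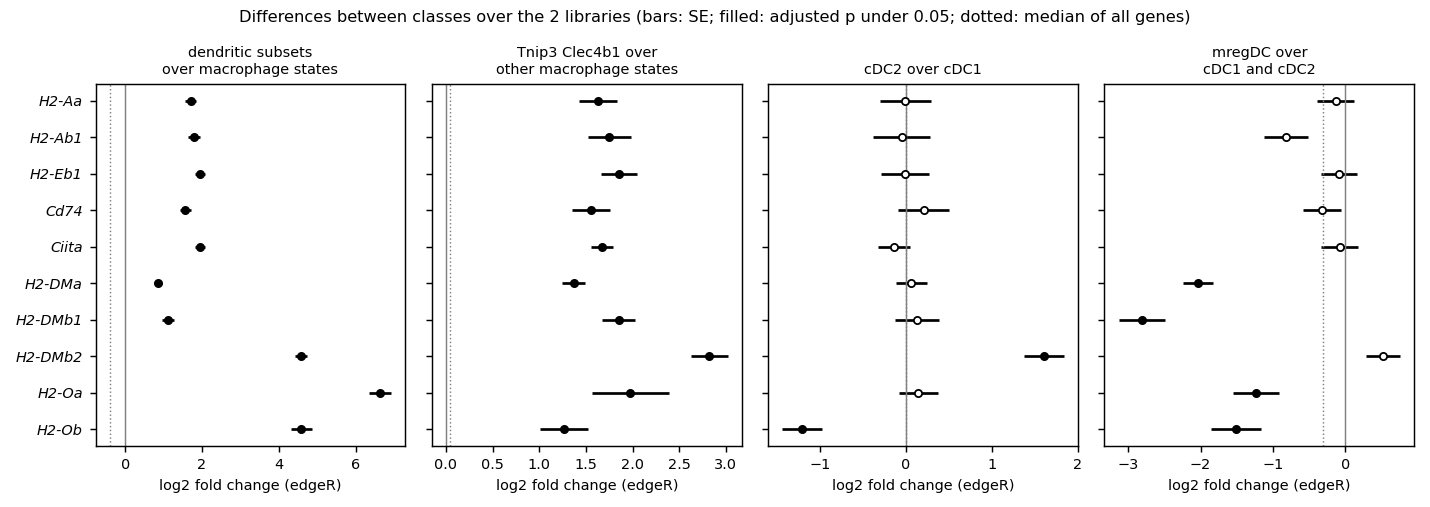
Log2 fold changes of the 10 members from edgeR, with SE bars. The panels show dendritic subsets over macrophage states, Tnip3 Clec4b1 over other macrophage states, cDC2 over cDC1, and mregDC over cDC1 and cDC2. Filled points passed an adjusted p of 0.05 and dotted lines mark the median of all genes tested. In the panel of dendritic subsets over macrophage states all 10 points are filled and lie between 0.86 and 6.64.

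The remaining 5 contrasts between classes were chosen after the levels had been seen. The *Tnip3* *Clec4b1* state had been named for high MHC class II levels in earlier results of these data. Its calls here therefore describe the state and are no independent test. The *Tnip3* *Clec4b1* macrophages exceeded the mean of the other macrophage states in all 10 members, where 10.1% of all genes were higher. *H2-DMb2* showed the largest log2 difference there, 2.82, from 25.2 and 21.0 CPM against at most 5.87 CPM in the other states, which it did not overlap. *H2-Ob*, with 1.27, showed the smallest, and its levels of 4.80 and 3.66 CPM overlapped those of *Lyve1* *Cd209f* macrophages (3.98 and 3.55 CPM). *H2-Oa*, with only 15 and 22 UMIs in the state, lost its call when cells were thinned (adjusted p = 0.08). The other 7 log2 differences ran from 1.37 (*H2-DMa*) to 1.85 (*H2-DMb1* and *H2-Eb1*).

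When cDC1 and cDC2 were set against this macrophage state directly, 5 members were higher and none was lower, with 12.9% of all genes higher and 25.7% lower. *H2-Oa* differed by 5.40, *H2-Ob* by 4.03 and *H2-DMb2* by 2.06 on the log2 scale, each with an adjusted p of 6.3e-11 or less. *Ciita* (0.59, adjusted p = 7.3e-04) and *H2-DMa* (0.39, adjusted p = 0.045) also passed. The differences of *H2-DMb1* (0.50), *H2-Ab1* (0.60), *H2-Eb1* (0.44), *H2-Aa* (0.39) and *Cd74* (0.38) did not pass, with adjusted p-values of 0.079 to 0.28. The count of members called ranged from 3 to 10 over 9 alternatives, while *H2-Oa*, *H2-Ob* and *H2-DMb2* were called in all 9.

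cDC1 and cDC2 differed from each other in 2 members. *H2-DMb2* was higher in cDC2, by 1.60 ± 0.23 on the log2 scale (adjusted p = 1.4e-06), where 8.22% of all genes were higher. *H2-Ob* was lower in cDC2, by -1.21 ± 0.23 (adjusted p = 1.3e-04), where 6.17% of genes were lower. Both calls held in all 10 alternatives. *H2-Oa*, the partner of *H2-Ob*, had 69.9 and 66.9 CPM in cDC1 and 91.3 and 65.1 CPM in cDC2, with overlapping ranges and a log2 difference of 0.15 ± 0.22. Log2 differences of the other 7 members lay between -0.14 (*Ciita*) and 0.20 (*Cd74*) with SEs of 0.18 to 0.33, so that differences of that size could not be resolved.

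In the mature mregDC the exchange genes *H2-DMa* and *H2-DMb1* and both H2-O genes were lower, while *H2-Aa*, *H2-Eb1*, *Cd74* and *Ciita* did not pass the test. Relative to cDC1 and cDC2, 4 members were lower, where 13.8% of all genes were lower, and no member passed as higher, where 8.95% were. *H2-DMb1* fell by 2.81 ± 0.32 on the log2 scale (adjusted p = 4.5e-07), from 567 to 644 CPM in cDC1 and cDC2 to 65.1 CPM [41.2 to 97.6] and 109 CPM [81.3 to 144] in mregDC. *H2-DMa* fell by 2.04 ± 0.21 (adjusted p = 2.5e-09). The conventional subsets and mregDC did not overlap for either gene. *H2-Ob*, with 6 and 15 UMIs in mregDC, fell by 1.51 ± 0.34 (adjusted p = 7.9e-04), and *H2-Oa*, with 7 and 19 UMIs, fell by 1.24 ± 0.32 (adjusted p = 0.0027). The *H2-Oa* call was lost after thinning (adjusted p = 0.14).

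In contrast, the other H2-DM beta gene was not lower in mregDC. With 33 and 92 UMIs there, *H2-DMb2* reached 93.3 CPM [64.2 to 131] in the IgG library, and the SPP1-nAb level was 197 CPM [159 to 242], within or above the span of cDC1 and cDC2, and its log2 difference was 0.52 ± 0.24 (adjusted p = 0.12). It passed as higher in 4 of 9 alternatives. Of the UMIs of both beta genes, *H2-DMb2* made up 58.9% [45.0 to 71.9, exact binomial] and 64.3% [55.9 to 72.2] in mregDC, against 20.8% and 22.5% in cDC2, 9.04% and 8.99% in cDC1 and 6.00% and 4.68% in *Tnip3* *Clec4b1* macrophages. mregDC thus stood apart from every other dendritic class in the ratio of the beta genes, in both libraries.

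*H2-Ab1* had 3046 and 3983 CPM in mregDC against 6061 to 6157 CPM in cDC1 and cDC2, a log2 difference of -0.82 ± 0.30 that did not pass (adjusted p = 0.061) and that passed in 5 of 9 alternatives. Its partner *H2-Aa* differed by -0.14 ± 0.26 (adjusted p = 0.84). The ratio of *H2-Ab1* to *H2-Aa* UMIs was 0.477 and 0.490 in mregDC, 0.798 and 0.786 in cDC1, 0.783 and 0.751 in cDC2 and 0.665 and 0.628 in the macrophage states. *H2-Eb1* (-0.09 ± 0.25), *Ciita* (-0.08 ± 0.26) and *Cd74* (-0.33 ± 0.26) did not pass either. The summed phagocyte markers in mregDC, 232 and 336 CPM, were below those in cDC1 (825 and 762 CPM) and cDC2 (1460 and 1251 CPM).

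pDC had less of nearly the whole family. Relative to cDC1 and cDC2, 9 members were lower, where 10.5% of all genes were lower, and none was higher, where 4.46% were. *H2-Eb1*, with 370 CPM [255 to 520] and 423 CPM [325 to 542], fell by 4.72 ± 0.37 on the log2 scale (adjusted p = 3.9e-09), and *H2-Ab1*, *H2-Aa* and *Cd74* fell by 4.40, 4.02 and 3.23. *H2-Ob* had 0 UMIs in both pDC libraries. At 3 counts per library the level would have been 33.7 and 20.2 CPM, so *H2-Ob* was at least 2.28-fold and 3.63-fold lower than the 76.7 and 73.1 CPM of cDC1 and cDC2 together. *H2-Oa*, with 5 and 12 UMIs, was the exception. Its level was 56.1 CPM [18.2 to 131] in the IgG pDC, and in those of SPP1-nAb it was 80.6 CPM [41.7 to 141], a log2 difference of -0.70 ± 0.38 that did not pass (adjusted p = 0.27). In these few cells the intervals of *H2-Oa* spanned the levels of cDC1 and cDC2 in both libraries.

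Ratios within a class set the family's parts against each other and do not depend on its depth, although their counting error does. Per 100 H2-DM UMIs (*H2-DMa*, *H2-DMb1* and *H2-DMb2*), H2-O UMIs (*H2-Oa* and *H2-Ob*) numbered 14.6 and 15.8 in cDC1, 10.1 and 8.10 in cDC2, 11.9 and 16.9 in mregDC and 16.1 and 20.7 in pDC, but 0.939 and 0.537 in the macrophage states. The 4 dendritic classes did not overlap the macrophage states in this ratio. The pDC values rest on 5 (IgG) and 12 (SPP1-nAb) H2-O UMIs, all from *H2-Oa*, since *H2-Ob* had 0 UMIs there. The mregDC values rest on 13 and 34 H2-O UMIs. High ratios were not limited to dendritic classes. From 2 and 4 H2-O UMIs, T or NK cells had 28.6 and 36.4. From 5 and 6, endothelial cells had 27.8 and 17.1. Mesenchymal, mural, satellite and Schwann cells together had 1.62 and 1.43. Per 100 UMIs of the classical chains (*H2-Aa*, *H2-Ab1* and *H2-Eb1*), H2-DM UMIs numbered 5.96 and 5.40 in cDC1, 7.03 and 6.41 in cDC2 and 5.82 and 6.38 in macrophage states. mregDC had the lowest of these ratios (2.05 and 2.24) and pDC the highest (22.3 and 23.1). *Cd74* UMIs per classical chain UMI were 0.831 and 0.811 in cDC1, 0.992 and 0.929 in cDC2, 1.03 and 0.962 in macrophage states and 1.91 and 1.90 in pDC.

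**Figure D4:**
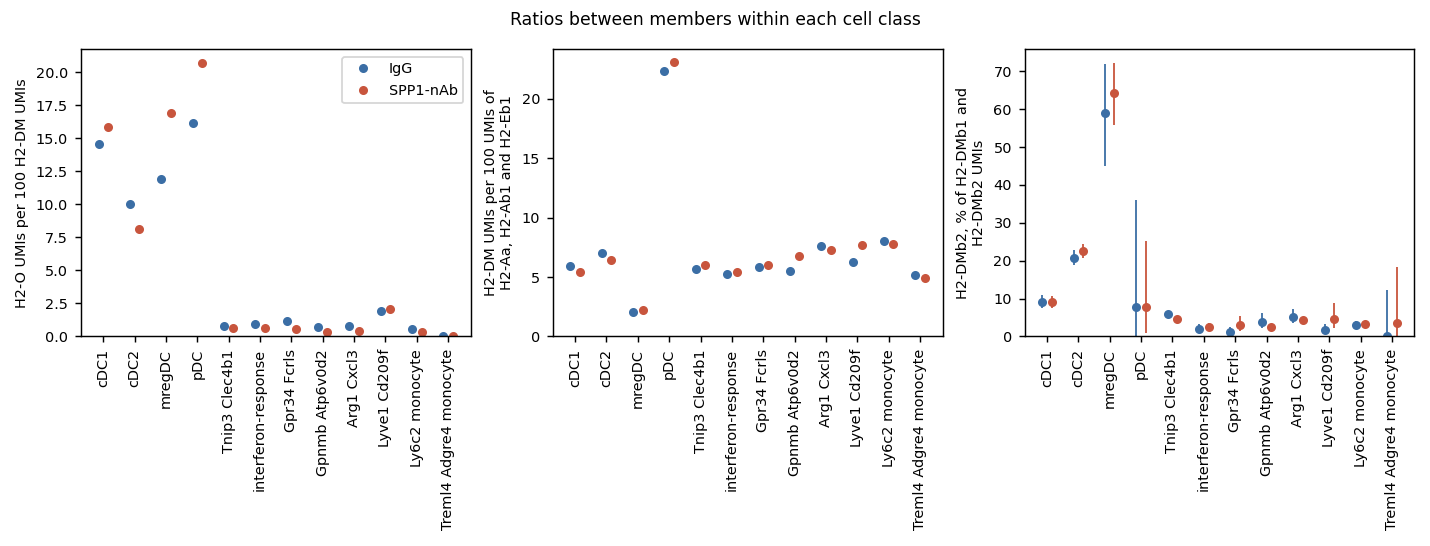
Ratios between members within each class, IgG in blue and SPP1-nAb in red: H2-O UMIs per 100 H2-DM UMIs on the left, H2-DM UMIs per 100 UMIs of the classical chains in the middle, and H2-DMb2 as a percentage of the UMIs of both H2-DM beta genes on the right, with 95% binomial intervals. The left panel separates dendritic classes (8.10 or more) from macrophage states, and mregDC alone passes 50% in the right panel.

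The response to SPP1-nAb could not be tested, since each treatment had 1 library. In the pooled dendritic subsets the core level was 37835 CPM (IgG) and 38829 CPM (SPP1-nAb), a log2 ratio of 0.04 [0.03 to 0.05], and in the 7 macrophage states together it was 14467 and 13697 CPM, a log2 ratio of -0.08 [-0.08 to -0.07]. Pooled macrophage values, also that of *H2-Ob* below, depend on the mix of states, which differed between libraries. *Arg1* *Cxcl3* cells, with a core log2 ratio of 0.23, numbered 946 and 2670, and *Gpnmb* *Atp6v0d2* cells, with 0.25, numbered 860 and 2574. *Lyve1* *Cd209f* cells, with -0.61, numbered 1231 and 518. Of 8 macrophage states and monocyte classes, 4 had a ratio above 0 and 4 below. The part of the mix in the pooled ratio was not tested. At a 1.5-fold difference, 0 of 10 members moved in the dendritic subsets, where 4.29% of genes with enough UMIs were higher and 4.62% lower. In the macrophage states 1 of 10 was lower, where 12.2% of genes were, and none was higher, where 3.43% were. That member was *H2-Ob*, at 3.15 CPM [2.57 to 3.81] from 105 UMIs in IgG and 1.65 CPM [1.34 to 2.01] from 97 UMIs in SPP1-nAb.

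*Ciita* was lower in the SPP1-nAb library in cDC1 (107 and 77.6 CPM, log2 ratio -0.47 [-0.78 to -0.15]), in cDC2 (95.6 and 76.8 CPM, -0.32 [-0.61 to -0.02]) and in *Tnip3* *Clec4b1* macrophages (63.5 and 50.6 CPM, -0.33 [-0.49 to -0.16]). *H2-DMa* was lower in cDC1 (-0.28 [-0.41 to -0.15]) and cDC2 (-0.23 [-0.34 to -0.12]), while its partner *H2-DMb1* was level in both (0.03 and 0.00). *H2-Oa* in cDC2 was at 91.3 and 65.1 CPM (-0.49 [-0.80 to -0.18]). In the other direction, *H2-Eb1* was higher in the SPP1-nAb library in cDC1 (0.12 [0.08 to 0.15]) and cDC2 (0.12 [0.09 to 0.15]). Each of these differences was under 1.5-fold and exceeded counting error alone, and 0 of 10 members passed 1.5-fold in cDC1, where 4.88% of genes were higher and 4.6% lower, in cDC2 (5.74% and 5.18%) or, of 9 with enough UMIs, in *Tnip3* *Clec4b1* macrophages (3.47% and 6.25%). The macrophage states went both ways. *Ciita* had log2 ratios of -0.64 [-1.08 to -0.21] in *Gpr34* *Fcrls* macrophages, 0.39 [0.04 to 0.75] in *Gpnmb* *Atp6v0d2* macrophages and 0.31 [-0.09 to 0.72] in interferon-response phagocytes, and *H2-DMa* had 0.54 [0.42 to 0.67] and 0.50 [0.36 to 0.63] in the last 2. The spread between libraries of the same treatment is not known.

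Some classes differed more. In mregDC 2 of the 8 members with enough UMIs were at least 1.5-fold higher in SPP1-nAb, *H2-DMb1* (65.1 and 109 CPM) and *H2-DMb2* (93.3 and 197 CPM), where 8.64% of genes were, and none was lower, where 5.53% were. The mregDC core level was higher as well (log2 ratio 0.32 [0.29 to 0.36]), with each core gene between 1.22-fold (*Cd74*) and 1.31-fold (*H2-Ab1*) higher. Core levels were higher in the SPP1-nAb library in interferon-response phagocytes (log2 ratio 0.40 [0.39 to 0.42]), where 0 of 7 members passed 1.5-fold against 4.61% of genes higher and 4.59% lower, and lower in *Lyve1* *Cd209f* macrophages (-0.61 [-0.64 to -0.58]), where *H2-Ab1*, *H2-Eb1* and *Cd74*, 3 of 7 members with enough UMIs, were at least 1.5-fold lower against 5.42% of genes, and none was higher against 4.22%. Ratios of classes that clusters also gave depended on how cells were assigned, and clusters held no mregDC in SPP1-nAb. With clusters in place of gates the log2 ratio of *Lyve1* *Cd209f* macrophages was 0.01, that of interferon-response phagocytes 0.22 and that of cDC1 0.34 in place of 0.02.

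**Figure D5:**
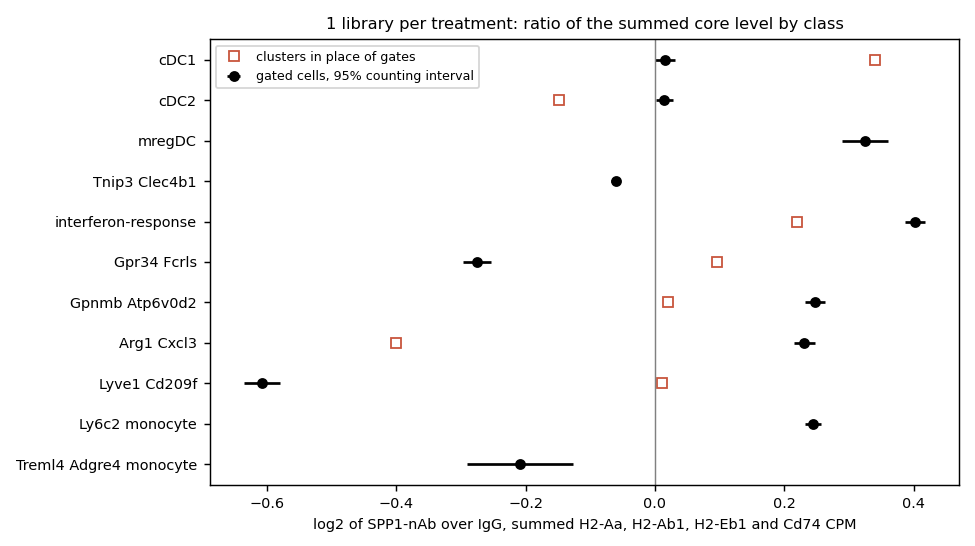
Log2 ratio of the summed CPM of H2-Aa, H2-Ab1, H2-Eb1 and Cd74, SPP1-nAb over IgG, by class. Filled points are gated cells with 95% counting intervals and open squares the same classes from clusters where both libraries had such a cluster; gates and clusters lie apart for most classes, as in Lyve1 Cd209f macrophages (-0.61 and 0.01).

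Other genes of the pathway were read from fixed lists of known members, beside 13.4% of all genes higher and 30.9% lower in this contrast and a median over all genes of -0.41. Among 7 subunits of the complexes that bind the X and Y boxes beside CIITA, 2 were higher in the dendritic subsets than in the macrophage states and none was lower, with a list median of 0.23 on the log2 scale, and 4 were higher with DESeq2's size factors. *Rfx5*, the large RFX subunit, passed (0.96 ± 0.24), while *Rfxap* (0.23), *Rfxank* (-0.62) and *Nfya* (0.27) did not. Of 6 genes of the interferon gamma input, 2 were higher and 4 lower, with a list median of -0.33 that lay above the median over all genes. *Jak2*, the kinase of the receptor's second chain, was higher (2.81 ± 0.08). The receptor chains *Ifngr1* (-0.30) and *Ifngr2* (-0.37) passed as lower but lay above the median over all genes, and the *Ifngr1* call was lost with DESeq2's size factors (adjusted p = 0.29). The kinase *Jak1* (-0.75) was lower under each scaling. Of 6 dendritic transcription factors 5 were higher, including *Irf4* (0.98), *Irf8* (1.43) and *Zbtb46* (4.94), the last of which also served as a cDC2 marker in the gates, and *Spi1* differed by 0.11 without passing, although it passed with DESeq2's size factors.

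Proteases that cut antigen and the invariant chain moved the other way. Of 8 lysosomal genes 7 were lower in the dendritic subsets (6 with DESeq2's size factors) and 1 was higher. *Ctss*, the main invariant chain protease of dendritic cells, had 673 and 738 CPM in cDC1, 1708 and 1646 CPM in cDC2 and 3133 and 4118 CPM in the macrophage states, a log2 difference of -1.32 ± 0.11. *Ctsl* (-4.52), *Ctsb* (-3.96) and *Ctsd* (-4.38) were lower by more. *Ifi30*, the thiol reductase that unfolds antigen, was the gene that was higher (0.93 ± 0.07). Between dendritic subsets the direction differed, since all 8 were higher in cDC2 than in cDC1, where *Ctss* differed by 1.21 ± 0.22. In mregDC 6 of 8 were higher than the mean of cDC1 and cDC2, and mregDC was not tested against each of them. The lists' medians were -2.41, 1.10 and 0.96, beside medians over all genes of -0.41, 0.00 and -0.32.

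Co-stimulatory genes, class II turnover and class I presentation completed the lists. Of 6 co-stimulatory genes 5 were higher in the dendritic subsets, among them *Cd80* (1.67), *Cd40* (0.51) and *Icosl* (2.28), and *Cd86* was lower (-0.79). With cDC1 and cDC2 alone against *Tnip3* *Clec4b1* macrophages, 2 of the 6 were higher and 2 lower, where 12.9% of all genes were higher and 25.7% lower. In mregDC 5 of 6 exceeded the mean of cDC1 and cDC2, with *Cd40* at 184 and 246 CPM against 10.8 to 52.1 CPM (log2 difference 3.05). Of 3 turnover genes 1 was higher and 2 were lower in the dendritic subsets than in the macrophage states. In this contrast mregDC counted as much as cDC1 or cDC2. With cDC1 and cDC2 alone against *Tnip3* *Clec4b1* macrophages, 1 of the 3 was higher and 1 lower. *March1*, the ubiquitin ligase that sends surface class II to degradation, had 166 and 121 CPM in cDC1, 113 and 48.1 CPM in cDC2 and 2.83 and 2.14 CPM in mregDC. mregDC did not overlap either subset, and the log2 difference was -5.42 ± 0.60 (adjusted p = 5.8e-09). The mregDC levels of *March1* lay under the level of 3 counts in both libraries, so the size of this difference is poorly known. These levels also entered the mean behind the lower call of *March1* against the macrophage states (log2 difference -1.20 ± 0.28). *Cd83*, which opposes that ligase, was at 902 and 803 CPM in mregDC (0.64 ± 0.17, adjusted p = 0.0077). Of 9 class I genes 5 were higher and 2 lower in the dendritic subsets (6 and 1 with DESeq2's size factors). *H2-K1* (-0.24) passed as lower, a call lost with DESeq2's size factors, and *H2-D1* (-0.09) did not pass. *B2m*, the class I light chain, was at -0.60 and *Tap1*, a subunit of the peptide transporter, at 1.29.

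*H2-Eb2*, the neighboring beta chain locus whose upstream stretch is printed above, was concentrated in mregDC. It had 232 CPM [184 to 288] and 246 CPM [203 to 295] there, 7.65 and 19.0 CPM in cDC2, 5.42 and 4.09 CPM in cDC1, 3.71 and 5.19 CPM in *Tnip3* *Clec4b1* macrophages and 0 UMIs in pDC. mregDC stood apart from each of these classes, and its log2 difference from cDC1 and cDC2 was 4.87 ± 0.28 (adjusted p = 2.1e-17). *H2-Eb1*, the beta chain gene beside it, differed by -0.09 in the same contrast.

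The profile of the core genes over 40 sums (20 classes in 2 libraries) was shared to differing degrees within the family. On log2(CPM + 1), the Pearson correlation with the mean core profile was 0.960 for *Ciita*, 0.944 for *H2-DMb1* and 0.937 for *H2-DMa*, and these 3 and the core genes themselves took the first 7 ranks among 13462 genes. *H2-DMb2* (0.757, rank 145), *H2-Ob* (0.628, rank 527) and *H2-Oa* (0.376, rank 1868) followed at a distance. The 10 genes outside the family with the most similar profiles were *Gm20513* (0.914), a noncoding gene antisense within *H2-Eb1*, *Irf5* (0.907), *Ifi30* (0.905), *Etv6* (0.903), *Lsr* (0.896), *Synj1* (0.895), *Rassf4* (0.893), *Batf3* (0.890), *Gm2a* (0.890) and *Got1* (0.889). The sums share their libraries and the depth of each class, and the correlations are descriptions. *Gm20513* and *H2-Eb1* overlap, as do *H2-Aa* and *H2-Eb1* at their ends on opposite strands.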

How the data were processed

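Cells of 2 libraries were profiled by droplet scRNA-Seq (10x Genomics). The authors deposited filtered matrices of UMI counts per gene and barcode, not normalized. The labels name Cell Ranger 8.0.0 and GRCm39, the file headers Cell Ranger 9.0.1, and the study's methods name both GRCm39 and GRCm38. As in the study, barcodes needed over 200 detected genes and a mitochondrial share under 10%. The study's ambient RNA and doublet removal were not applied to these counts. A barcode joined a phagocyte lineage with 5 of 9 lineage markers and a class with at least 3 of its markers. Barcodes that met a neutrophil, lymphocyte, stromal or muscle gate beside another lineage were left out, which served as the doublet filter. A barcode with 5 lineage markers stayed a phagocyte even where it met a dendritic gate. Doublets of a phagocyte and a dendritic cell were thus not filtered out this way. Barcodes of no class were not compared. UMIs were summed per class and library, given as CPM of the class with exact Poisson intervals, and tested with edgeR 4.0.16 (R 4.3.3, TMM, library as covariate) over 20 classes with at least 20 cells in each library. That left *Dcstamp* *Ear2* macrophages and B cells out of the test. Ratios between libraries used exact binomial intervals on genes with at least 50 UMIs. Clusters for the alternative came from Leiden clustering (leidenalg 0.10.2, scikit-learn 1.9.0) without the members. DESeq2 1.42.0 was an alternative, as was dropping the top 10% of barcodes by doublet score. Scripts ran in Python 3.11.15 with NumPy 2.4.6 and SciPy 1.17.1 and were tested on simulated data. All 10 members are named, and likeness names the 10 nearest genes with at least 200 UMIs. Other pathway genes are named up to 4 to a list in list order, except for *March8*, with others by count. Only *Ifi30* and the check markers were singled out after their values were seen. The members and lists were chosen with earlier results of these data known. Promoter sequences came from RefSeq on GRCm38.p6, and transcripts and exons from GENCODE on GRCm39.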

Additional observations from a re-analysis of the deposited data

Results flagged for a closer look

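Among 8 named macrophage states and monocyte classes, a pair of macrophage states had the highest and the lowest ratio of SPP1-nAb to IgG. Classes that were neither phagocytes nor dendritic cells ranged further, from -0.77 (satellite or myoblast) to 1.64 (T or NK), at core levels of 1146 CPM or less except in neutrophils. The summed level of *H2-Aa*, *H2-Ab1*, *H2-Eb1* and *Cd74* was higher in the SPP1-nAb library in interferon-response phagocytes (log2 ratio 0.40, from 11772 to 15558 CPM) and lower in *Lyve1* *Cd209f* macrophages (log2 ratio -0.61, from 8038 to 5274 CPM). Of the 8 classes 4 were above 0 and 4 below. The difference between the states was not tested, because each treatment had 1 library. The number of *Lyve1* *Cd209f* cells was lower along with their core level, at 1231 in IgG and 518 in SPP1-nAb. That of interferon-response phagocytes was lower too, at 1070 and 767, while their core level was higher. With clusters in place of gates the log2 ratios were 0.22 and 0.01, and over the other 7 alternatives they ran from 0.40 to 0.44 and from -0.72 to -0.51.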

How the results depend on the processing

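The call of all 10 members as higher in the dendritic subsets than in the macrophage states held in 9 alternatives of that contrast with a test. It also held with clusters in place of gates, a different contrast of cDC1 and cDC2 with macrophage states that lacked the *Tnip3* *Clec4b1* state, since clusters held mregDC in IgG only and that state in SPP1-nAb only. Without a test, all 10 were higher in either library alone (10 to 10 members without IgG replicate 1 and without SPP1-nAb replicate 1). For cDC1 and cDC2 over *Tnip3* *Clec4b1* macrophages the count of 5 became 3 with gates that need 1 more marker, 8 with less than 5% mitochondrial UMIs, 10 without the filter on low counts and 10 in a fit of only dendritic and macrophage classes. For mregDC over cDC1 and cDC2 the count of 0 higher members became 1, *H2-DMb2*, under DESeq2, DESeq2 size factors, less than 5% mitochondrial UMIs and a fit of only dendritic and macrophage classes. The log2 core ratio of the libraries in dendritic subsets (0.04) became 0.059 with 1 more marker, 0.093 with clusters, 0.028 after thinning and 0.014 with each cell counted equally. In macrophage states it (-0.08) became -0.051 with 1 more marker, 0.0082 with clusters, -0.072 with less than 5% mitochondrial UMIs, -0.091 after thinning, -0.085 after subtracting the non-immune level and -0.096 with each cell counted equally. The sign changed in cDC1 after thinning (-0.0014) and with each cell counted equally (-0.0033), in cDC2 with clusters (-0.15) and with each cell counted equally (-0.019), and with clusters in *Arg1* *Cxcl3* (-0.40), *Lyve1* *Cd209f* (0.011) and *Gpr34* *Fcrls* macrophages (0.10). Apart from the fits with fewer cells or genes, the cause was not tested. The pooled cluster values hold those single-library classes. Clusters gave no mregDC class in SPP1-nAb, no *Tnip3* *Clec4b1* class in IgG and no pDC class, so those contrasts were not run on clusters. No paired analysis was possible because each treatment had 1 library. Counts under 50 UMIs, as for *H2-Oa* and *H2-Ob* in mregDC, pDC and most macrophage states, limit what can be resolved there.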
